A study of Mus musculus with 6 samples.

Results

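The genes described here decide what becomes of pyruvate and lactate, together with basigin, the membrane partner of the lactate carriers. They were chosen by name: every probe set that the array's annotation assigns to Pkm, Ldha, Ldhb, Pdk1, Pdk2, Pdk3, Pdk4, Bsg, Slc16a1 or Slc16a3, which gave 17 probe sets of these 10 genes out of 45101 on the array. The study used 3 female mice aged 6 weeks in which a Cre recombinase driven in podocytes (podocin-Cre, or Pod-Cre) had excised the floxed Vhl gene. They are called Vhl-deleted here, and 3 female wild-type control littermates of the same age were set against them. The litters came from parents with a single Pod-Cre transgene copy and floxed Vhl on both alleles. If this held for both parents, the controls carried floxed Vhl on both alleles too, but the labels do not state their genotype. The Vhl-deleted mice had been picked for urinary albumin no higher than the littermate average at 4 weeks. Glomeruli, the filtering tufts of the kidney, were isolated with magnetic beads, and each mouse gave RNA for 1 Affymetrix array.

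Pyruvate is the end product of glycolysis. Pyruvate kinase M, encoded by Pkm, makes it, lactate dehydrogenase converts it to lactate and back, and the pyruvate dehydrogenase kinases hold it out of the mitochondrial citric acid cycle by switching off pyruvate dehydrogenase. The monocarboxylate carriers MCT1 and MCT4, encoded by Slc16a1 and Slc16a3, move lactate and pyruvate across the plasma membrane and need basigin, encoded by Bsg, to reach it. The Vhl protein directs the destruction of the hypoxia-inducible factors (HIF), and in many cell types Pkm, Ldha, Pdk1 and Slc16a3 are known HIF targets. Whole glomeruli also hold endothelial, mesangial and parietal cells, in which Cre is not driven, so fewer cells of a type and less RNA per cell cannot be told apart in these arrays.

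Values are MAS5 signals, the brightness summary of a probe set on a linear scale. A change is the log2 difference of signal + 28, Vhl-deleted minus wild-type, given with its standard error (SE), and each group had n = 3 arrays. A change passed the test at an adjusted p under 0.05 in a limma fit over all 11159 genes. That fit called 9 genes, or 0.0807% of those tested, of which 8 rose (0.0717%) and 1 fell (0.00896%). The groups did not overlap in 10.7% of all genes, with the Vhl-deleted arrays above in 5.04% and below in 5.64%. Vhl itself had a change of -0.23 (SE 0.12, limma adjusted p = 0.944). Its signal was 611, 619 and 606 in Vhl-deleted replicates 1 to 3, against 809, 665 and 707 in wild-type replicates 1 to 3. It was thus among the 5.64% of genes below without overlap, and it did not pass.

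Among markers fixed for the cell types of the isolate, the 10 podocyte markers tested of 12 had summed signals of 94610 to 112272 in Vhl-deleted and 98384.5 to 129340 in wild-type arrays, so the isolates carried podocyte RNA; 2 of the 10 had a positive change, and their median change was -0.26. The summed signal of the 9 proximal tubule markers tested of 10 was 59277 to 102221 in Vhl-deleted arrays, whereas wild-type replicates 1 and 2 had 66677 and 76403 and wild-type replicate 3 had 16251. All 9 had a positive change. The 7 distal nephron markers tested of 8 behaved alike, at 42061 to 65931 in Vhl-deleted arrays and 53077 to 55316 in wild-type replicates 1 and 2, with 22999 in wild-type replicate 3, and all 7 had a positive change. Wild-type replicate 3 thus stood apart by its low tubule signal. That array also had the highest podocyte sum, 129340, against 98384.5 and 104617 in wild-type replicates 1 and 2. The 7 leukocyte markers tested of 8 summed to 6915 to 10380 in Vhl-deleted and 4084 to 6165 in wild-type arrays, without overlap, and 6 of the 7 had a positive change. Of these 3 marker lists, 0 members passed the test, and no marker tested was at 0.

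Pyruvate kinase and basigin transcripts were about 2.1 times as bright in Vhl-deleted as in wild-type glomeruli. They were the 2 of the 9 tested member genes that passed, where 0.0807% of all genes did. Lactate dehydrogenase A and the kinase Pdk1 were also brighter in each Vhl-deleted array than in any wild-type array, by ratios of mean signals of 1.89 and 1.60, without passing. Pdk4 lay lower in each Vhl-deleted array, also without passing, and Ldhb, Pdk2, Pdk3 and Slc16a1 overlapped between the groups. Over all genes, the Vhl-deleted arrays lay above without overlap in 5.04% and below in 5.64%. Slc16a3 was too dim for the filter and was not tested with the others. The median change of the 9 tested members was 0.50, against 0.00 over all genes, and 6 were positive and 3 negative, where 50.9% of all genes had a positive change. Single arrays moved that median: it was 0.08 with 5 positive without wild-type replicate 3, and 0.91 without wild-type replicate 1. It was 0.18 with the proximal tubule marker mean of each array as a covariate and 0.15 with array weights. With the leukocyte marker mean as a covariate, chosen after seeing the data, it was 0.01 with 5 positive. That leukocyte mean was 9.57, 9.45 and 9.89 in Vhl-deleted replicates 1 to 3, against 9.39, 9.17 and 8.78 in wild-type replicates 1 to 3. Group and leukocyte level can thus hardly be told apart in these arrays. Values with this covariate, here and below, are not leukocyte-corrected changes.

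Pkm is measured by 1 probe set (1417308_at), and no source used here says whether that probe set tells the M1 and M2 splice forms apart. Its signal was 5230, 4950 and 4854 in Vhl-deleted replicates 1 to 3, against 2440, 2511 and 2249 in wild-type replicates 1 to 3. The 3 Vhl-deleted arrays lay close together and far above the 3 wild-type arrays. Pkm rose by 1.05 (SE 0.09, 95% interval 0.83 to 1.28, adjusted p = 0.0172 in limma). Among all genes tested it ranked 6 by unadjusted p.

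Bsg encodes a membrane glycoprotein of the immunoglobulin superfamily, also known as CD147, that escorts MCT1 and MCT4 to the cell surface. Its signal on the single probe set (1456616_a_at) was 11160, 9332 and 9561 in Vhl-deleted replicates 1 to 3, against 5093, 4673 and 4555 in wild-type replicates 1 to 3. The groups were separated by a gap wider than the spread within either of them. Bsg rose by 1.06 (SE 0.11, 95% interval 0.81 to 1.32, adjusted p = 0.0354 in limma), ranking 7 by unadjusted p.

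Both calls were lost in several other fits. Leaving out wild-type replicate 1 or 2, or Vhl-deleted replicate 1, 2 or 3, gave limma adjusted p of 0.0696 to 0.223 for Pkm and 0.108 to 0.229 for Bsg, although the changes stayed between 1.02 and 1.09 for Pkm and between 0.98 and 1.11 for Bsg in those fits. Without wild-type replicate 3, the array with the low tubule signal, both still passed (limma adjusted p = 0.0208 and 0.0438). With the leukocyte covariate the changes were 1.00 and 0.99 and neither passed (limma adjusted p = 0.133 and 0.225). With all 6 arrays, Bsg did not pass without the intensity trend (limma adjusted p = 0.0698), and neither gene passed with the replicate number as a block (limma adjusted p = 0.358 each). The part of leukocyte RNA in these changes was not tested.

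Ldha encodes the lactate dehydrogenase subunit that favours the making of lactate from pyruvate. Its signal (1419737_a_at) was 9906, 8841 and 9677 in Vhl-deleted replicates 1 to 3, against 5442, 5464 and 4101 in wild-type replicates 1 to 3. The lowest Vhl-deleted array was well above the highest wild-type array. The change was 0.93 (SE 0.14, 95% interval 0.61 to 1.25), rank 20 of all genes by unadjusted p, and it did not pass (adjusted p = 0.131 in limma). It passed with the proximal tubule covariate, at 0.82 (SE 0.09, limma adjusted p = 0.0122). With the leukocyte covariate its change was 0.65 and did not pass (limma adjusted p = 0.484). Nor did it pass with any array left out (limma adjusted p of 0.0657 to 0.786) or with the replicate block (limma adjusted p = 0.857).

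**Figure D1:**
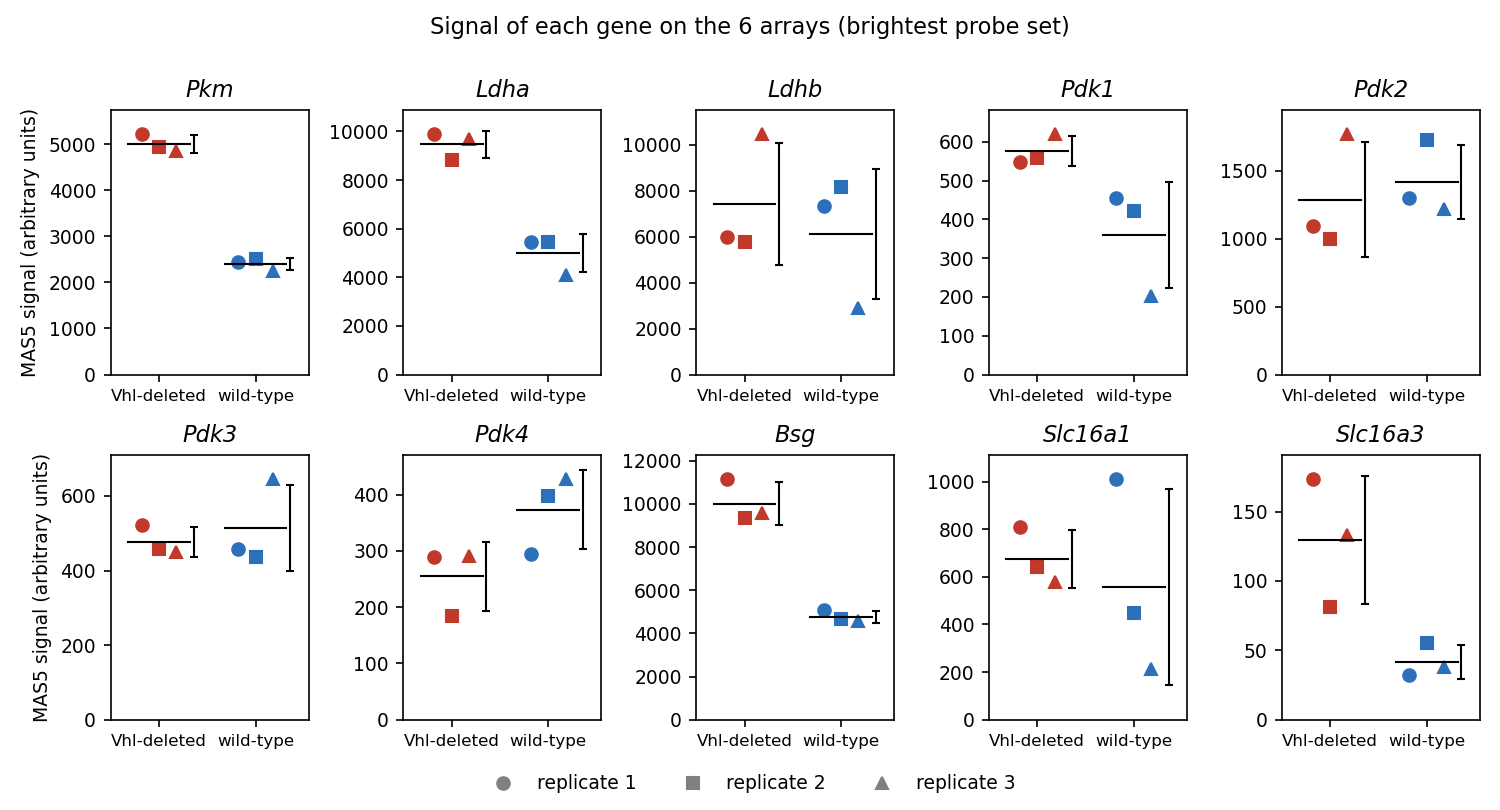
MAS5 signal in arbitrary units of the brightest probe set of each of the 10 genes, with Vhl-deleted arrays (red) left of wild-type arrays (blue); marker shapes give the replicate number, horizontal lines the group means and bars 1 SD, and each axis starts at 0. Pkm, Ldha, Pdk1, Bsg and Slc16a3 have the 3 Vhl-deleted arrays above the 3 wild-type arrays, and Pdk4 has them below. Ldhb, Pdk2, Pdk3 and Slc16a1 overlap. Over all genes tested, the groups did not overlap in 10.7%.

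Ldhb encodes the other subunit of the enzyme, which favours lactate as the substrate. All 4 of its probe sets passed the filter and gave the same picture. On the brightest (1434499_a_at) the signal was 5989, 5789 and 10486 in Vhl-deleted replicates 1 to 3, against 7327, 8165 and 2890 in wild-type replicates 1 to 3. Vhl-deleted replicate 3 was the highest array and wild-type replicate 3 the lowest, so that the groups overlapped widely. The change was 0.36 (SE 0.42, 95% interval -0.64 to 1.35, adjusted p = 0.944 in limma), and the other probe sets gave 0.24, 0.51 and 0.36. Those with changes of 0.24 and 0.51 are of the x_at type, in which probes can match other transcripts too.

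The order of the 6 arrays by Ldhb signal was that of the proximal tubule marker mean on all 6 ranks: wild-type replicate 3 lowest, then Vhl-deleted replicates 2 and 1, wild-type replicates 1 and 2, and Vhl-deleted replicate 3. That mean was 12.13, 12.07 and 13.00 on the log2 scale in Vhl-deleted replicates 1 to 3, against 12.22, 12.64 and 10.34 in wild-type replicates 1 to 3. With the mean as a covariate the Ldhb change was -0.11 (95% interval -0.34 to 0.11) and its SE 0.10 in place of 0.42. Without wild-type replicate 3 the change was -0.12. Wild-type replicate 3, the lowest array by tubule markers, was also the lowest for Pkm, Ldha, Pdk1, Bsg and Slc16a1 and the highest for Pdk3 and Pdk4.

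**Figure D2:**
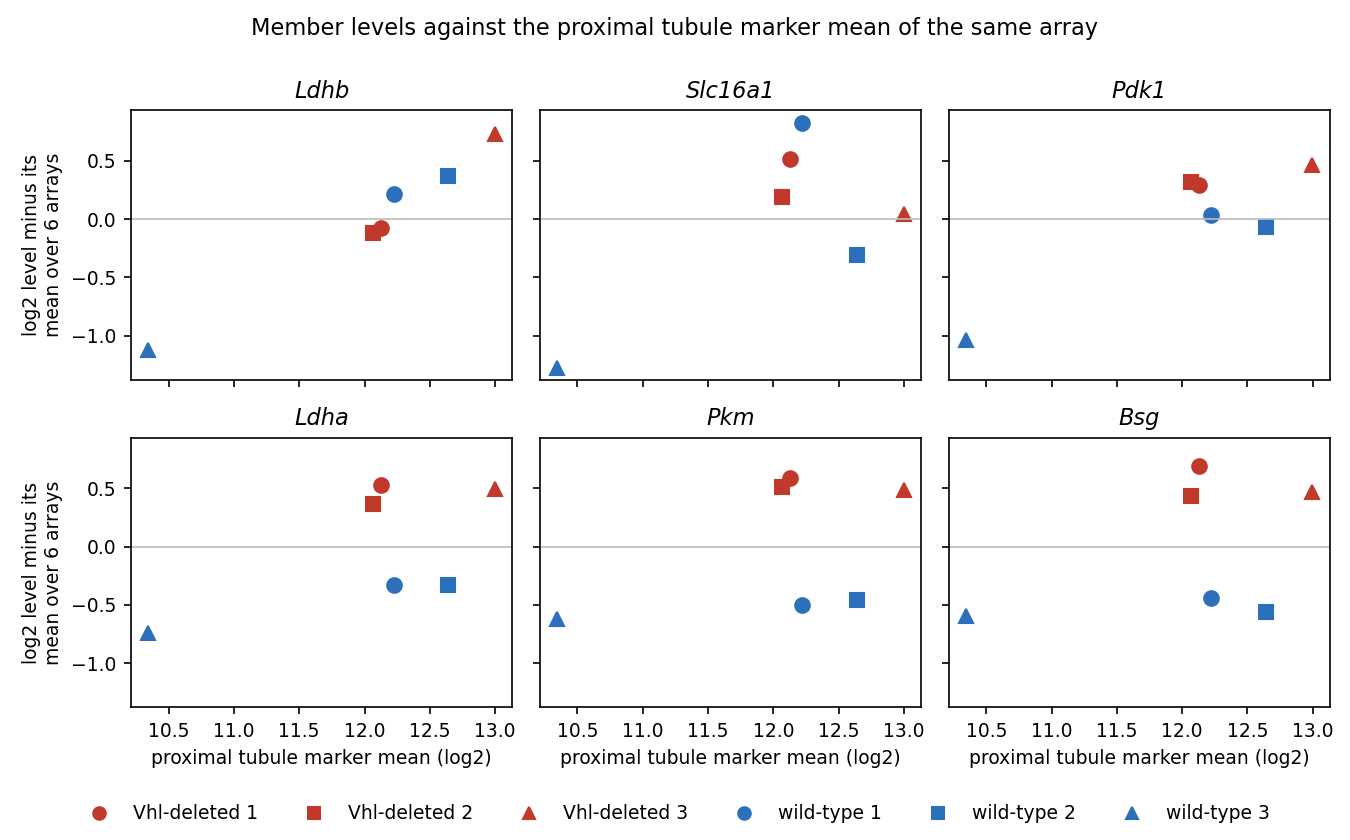
Log2 level of 6 of the genes, each minus its mean over the 6 arrays, against the mean log2 level of the proximal tubule markers on the same array; red points are Vhl-deleted and blue points wild-type arrays, with shapes for the replicate. Ldhb runs along the marker mean regardless of group, while Ldha, Pkm and Bsg lie in an upper red and a lower blue group and wild-type replicate 3 is the array at the far left.

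Setting the dehydrogenase subunits against each other within each array, the log2 difference Ldha minus Ldhb was 0.72, 0.61 and -0.12 in Vhl-deleted replicates 1 to 3, against -0.43, -0.58 and 0.50 in wild-type replicates 1 to 3. Its sign here carries no information on which subunit is more abundant, since these are different probe sets. The group means were 0.41 ± 0.45 and -0.17 ± 0.58 (SD, n = 3 each), a shift of 0.57 whose groups overlapped (exact two-sided permutation p = 0.2, adjusted p = 0.3 over 6 such pairs). The shift was 0.37 without wild-type replicate 2 and 0.91 without wild-type replicate 3. With 3 arrays against 3 the smallest p this test can give is 0.1.

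Of the 4 pyruvate dehydrogenase kinases, 0 passed the test; the changes of Pdk1 were positive and those of Pdk2, Pdk3 and Pdk4 negative. Pdk1, the family member best known as a HIF target, had 3 probe sets above the filter. On the brightest (1423747_a_at) the signal was 549, 558 and 621 in Vhl-deleted replicates 1 to 3, against 454, 422 and 202 in wild-type replicates 1 to 3. The groups did not overlap, and wild-type replicate 3 was far below the other 2 wild-type arrays. The change was 0.71 (SE 0.28, 95% interval 0.05 to 1.37, adjusted p = 0.944 in limma).

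The other 2 Pdk1 probe sets above the filter pointed the same way. On 1435836_at the signal was 632, 640 and 546 in Vhl-deleted and 391, 344 and 224 in wild-type replicates 1 to 3, a change of 0.90 (SE 0.20, adjusted p = 0.604 in limma over 19890 probe sets). On 1423748_at it was 322, 320 and 462 in Vhl-deleted and 220, 336 and 132 in wild-type replicates 1 to 3, a change of 0.68 with overlapping groups. Over all probe sets tested, the Vhl-deleted arrays were above without overlap in 4.39%, and this held for 5 of the 14 of the members. The last Pdk1 probe set (1434974_at) stayed under the filter, with a highest signal of 51.1. In the fit over probe sets, which called 14 of 19890 (0.0704%; 0.0654% higher), those of Pkm and Bsg were the 2 of the 14 tested member probe sets that passed. Without wild-type replicate 3 the Pdk1 change was 0.37, and with the proximal tubule covariate it was 0.43 (95% interval 0.09 to 0.78). With the leukocyte covariate the Pdk1 change was 0.01 (SE 0.27).

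**Figure D3:**
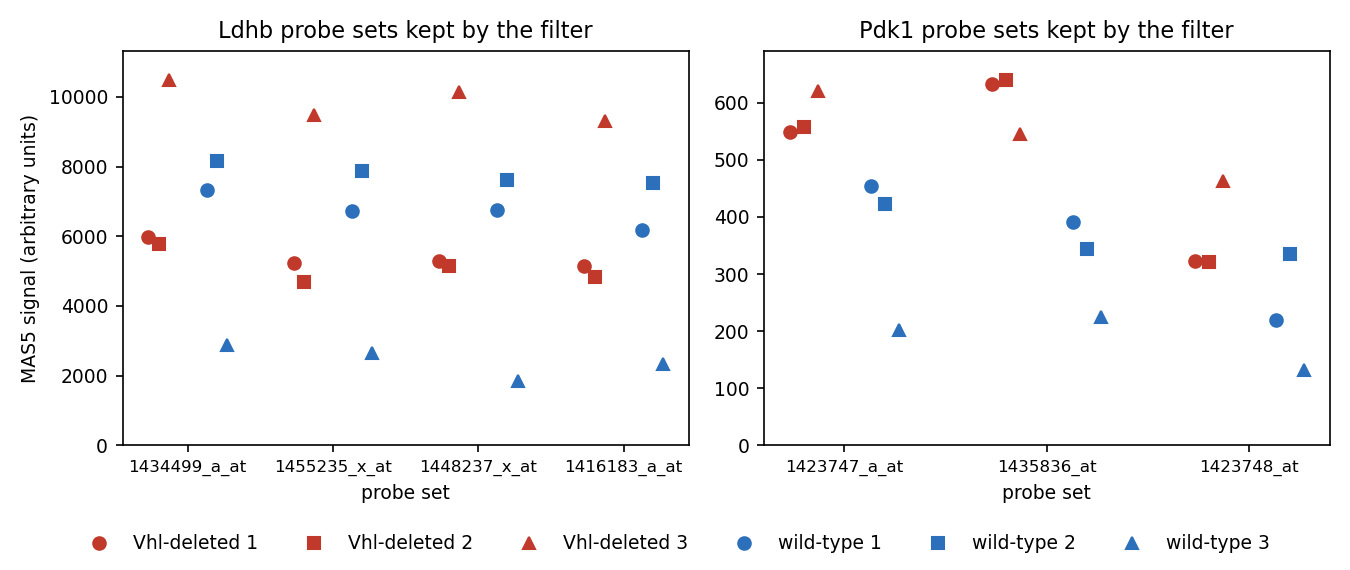
MAS5 signal in arbitrary units of the 4 Ldhb and 3 Pdk1 probe sets that passed the filter, with Vhl-deleted arrays (red) left of wild-type arrays (blue) at each probe set and shapes for the replicate. The 4 Ldhb probe sets repeat the same array order with wild-type replicate 3 lowest, and the Pdk1 groups are separate on 1423747_a_at and 1435836_at and overlap on 1423748_at.

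Pdk4, the kinase that fasting and fatty acids are known to induce, had a signal (1417273_at) of 289, 184 and 291 in Vhl-deleted replicates 1 to 3, against 295, 397 and 428 in wild-type replicates 1 to 3. All 3 Vhl-deleted arrays were below the 3 wild-type arrays, the nearest of them by a few units. The change was -0.51 (SE 0.22, 95% interval -1.03 to 0.00, adjusted p = 0.944 in limma). It was negative in all 21 alternative settings that gave a value, and it passed in none. On a single probe set, the settings of filter, probe set choice, trend, robust variance, block and threshold could not alter the change. With the proximal tubule covariate the change was -0.49.

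Pdk2, the kinase found in most tissues, had a signal of 1091, 998 and 1773 in Vhl-deleted replicates 1 to 3, against 1303, 1728 and 1222 in wild-type replicates 1 to 3, a change of -0.17 (95% interval -0.73 to 0.40). Pdk3 had a signal of 523, 457 and 449 in Vhl-deleted replicates 1 to 3, against 458, 436 and 646 in wild-type replicates 1 to 3, a change of -0.08 (95% interval -0.49 to 0.32). The groups overlapped for both genes. Wild-type replicate 3 was the highest array for Pdk3, and without it the Pdk3 change was 0.08.

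Within each array, Pdk1 was set against the other kinases. Pdk1 minus Pdk4 was 0.86, 1.46 and 1.03 in Vhl-deleted replicates 1 to 3, against 0.58, 0.08 and -0.99 in wild-type replicates 1 to 3. The groups did not overlap, and the shift of 1.22 had the smallest exact permutation p this design allows, 0.1 (adjusted p = 0.3 over 6 pairs). Pdk1 minus Pdk3 shifted by 0.80, also without overlap (exact permutation p = 0.1, adjusted p = 0.3), and Pdk1 minus Pdk2 by 0.88 with overlap (exact permutation p = 0.2, adjusted p = 0.3). Without wild-type replicate 3 these shifts were 0.79, 0.29 and 0.63, all still positive.

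The lactate carriers were measured on a probe set above the filter for Slc16a1 and one below it for Slc16a3. Slc16a1, the MCT1 gene, had a signal (1415802_at) of 810, 640 and 577 in Vhl-deleted replicates 1 to 3, against 1011, 446 and 214 in wild-type replicates 1 to 3. The wild-type arrays held both the highest and the lowest value. The change was 0.50 (SE 0.48, 95% interval -0.63 to 1.63, adjusted p = 0.944 in limma), and it was -0.01 without wild-type replicate 3 and 1.04 without wild-type replicate 1. The other Slc16a1 probe set (1446274_at) was at 16.7 or less on every array, under the filter.

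Slc16a3, the gene of MCT4, the carrier known for lactate export from strongly glycolytic cells, had a signal (1449005_at) of 174, 82 and 133 in Vhl-deleted replicates 1 to 3, against 32, 55 and 38 in wild-type replicates 1 to 3. All Vhl-deleted arrays were above all wild-type arrays, but the wild-type signals were close to the added 28, and the gene's mean log2 level was under the filter, which corresponds to a signal of 96.4. The log2 difference was 1.15, which understates the ratio of mean signals of 3.11. In a fit without the filter its SE was 0.29 and its limma adjusted p 0.710. With an added value of 100 in place of 28 the difference was 0.68.

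The carriers were also compared within arrays. Slc16a3 minus Slc16a1 shifted by 0.65 between the groups (exact permutation p = 0.7, adjusted p = 0.7), and Bsg minus Slc16a1 by 0.56 (exact permutation p = 0.5, adjusted p = 0.6), with overlap in both. Both shifts rested on wild-type replicate 1: without it they were 0.01 and 0.07, and without wild-type replicate 3 they were 1.12 and 1.04. The Slc16a3 minus Slc16a1 shift also moved with the added value, to 0.93 with 7 and 0.26 with 100 in place of 28. The within-array value of Bsg minus Slc16a1 varied little among Vhl-deleted arrays, at 3.85 ± 0.13 (SD, n = 3), and widely among wild-type arrays, at 3.28 ± 0.97 (SD, n = 3).

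The start regions of the members were read for the core letters of the HIF binding motif, and windows of Ldha, Pkm, Pdk1 and Slc16a3 are shown because their signals were higher on each Vhl-deleted than on any wild-type array, although of these 4 only Pkm passed the test; Ldhb is shown as the subunit whose groups overlapped. The windows run from 250 bases before to 50 bases after an annotated gene start in RefSeq on GRCm38.p6. They are printed 5′ to 3′ along the gene's strand, in lower case, with every ACGTG or GCGTG on either strand in capitals (read on the other strand these are CACGT and CACGC). In CACGTG the 2 strands' matches overlap.
Ldha, first start, chr7:46845554-46845853, plus strand: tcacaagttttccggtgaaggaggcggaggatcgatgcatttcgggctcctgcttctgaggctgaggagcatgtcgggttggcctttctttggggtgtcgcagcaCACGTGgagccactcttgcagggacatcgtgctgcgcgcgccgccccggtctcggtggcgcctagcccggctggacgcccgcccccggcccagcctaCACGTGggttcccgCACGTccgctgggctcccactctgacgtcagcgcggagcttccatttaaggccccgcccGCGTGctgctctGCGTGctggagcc
Pkm, first start, chr9:59656326-59656625, plus strand: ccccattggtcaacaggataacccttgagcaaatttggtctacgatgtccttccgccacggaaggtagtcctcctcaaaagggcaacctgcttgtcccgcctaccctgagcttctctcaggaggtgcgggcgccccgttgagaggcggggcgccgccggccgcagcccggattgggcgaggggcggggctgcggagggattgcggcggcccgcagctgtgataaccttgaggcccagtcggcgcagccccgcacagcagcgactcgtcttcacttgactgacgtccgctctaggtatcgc
Pkm, second start, chr9:59656977-59657276, plus strand: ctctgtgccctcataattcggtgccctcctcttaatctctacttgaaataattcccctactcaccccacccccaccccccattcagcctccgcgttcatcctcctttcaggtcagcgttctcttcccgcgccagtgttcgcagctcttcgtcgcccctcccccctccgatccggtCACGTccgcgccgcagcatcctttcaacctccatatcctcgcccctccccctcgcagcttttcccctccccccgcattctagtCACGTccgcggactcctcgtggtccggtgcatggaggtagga
Pdk1, first start, chr2:71872974-71873273, plus strand: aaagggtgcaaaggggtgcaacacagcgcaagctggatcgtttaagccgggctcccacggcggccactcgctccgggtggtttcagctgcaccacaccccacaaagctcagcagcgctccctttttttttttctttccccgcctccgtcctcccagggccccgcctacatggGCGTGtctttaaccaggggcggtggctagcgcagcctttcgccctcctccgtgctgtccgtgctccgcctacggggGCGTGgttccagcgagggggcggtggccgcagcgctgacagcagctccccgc
Slc16a3, chr11:120948817-120949116, plus strand: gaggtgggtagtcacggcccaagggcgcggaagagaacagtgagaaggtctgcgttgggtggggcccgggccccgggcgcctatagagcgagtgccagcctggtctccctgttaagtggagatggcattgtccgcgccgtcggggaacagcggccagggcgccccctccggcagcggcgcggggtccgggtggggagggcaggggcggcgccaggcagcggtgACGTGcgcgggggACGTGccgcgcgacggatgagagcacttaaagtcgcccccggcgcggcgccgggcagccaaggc
Ldhb, chr6:142507908-142508207, minus strand: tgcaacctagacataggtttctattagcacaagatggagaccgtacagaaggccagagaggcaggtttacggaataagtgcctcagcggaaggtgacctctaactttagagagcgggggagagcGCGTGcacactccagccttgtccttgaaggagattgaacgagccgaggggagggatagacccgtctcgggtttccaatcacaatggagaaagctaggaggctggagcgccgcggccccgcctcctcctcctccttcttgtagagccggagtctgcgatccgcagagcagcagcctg

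The printed Ldha window held 5 ACGTG matches, counted on both strands, among them those of 2 CACGTG words, and 2 GCGTG matches. The second Pkm window held 2 ACGTG matches and the first held 0 of either motif. The printed Pdk1 window held 2 GCGTG matches and the window of its second start, not printed, held 0 of either motif. The second Ldha window, also not printed, held 2 GCGTG matches. There were 2 ACGTG matches in the Slc16a3 window and 1 GCGTG match in the Ldhb window. These motifs are short and common: 19.6% of all 32851 windows in the table held ACGTG, 32.4% GCGTG and 43.8% either. Of the members, 9 had a window, 13 windows in all, and 10 of the 13 held either motif. Among them were windows of Slc16a1, Pdk2, Pdk3 and Pdk4, genes that were not brighter than wild-type on every array. The Slc16a1 window, not printed, held 3 ACGTG and 2 GCGTG matches, and the Pdk3 window 1 and 3. The first Pdk2 window held 2 ACGTG matches, those of 1 CACGTG word, and the second held 0 of either motif. In the Pdk4 window there was 1 GCGTG match. Bsg had no entry. A match is a description of the letters, and binding was not measured here.

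Beyond the 10 genes, 33 genes of pyruvate and lactate handling were listed in 4 groups, of which 29 were tested. None of the 29 passed in limma, and 0 had an unadjusted p under 0.05, against 549 of all 11159 genes. Their groups overlapped in every case, while over all genes tested the groups did not overlap in 10.7%. Of the 29 changes 26 were positive, with a median of 0.16, but without wild-type replicate 3 the count was 16 and the median 0.01, and with the proximal tubule covariate likewise 16 and 0.01. With array weights 13 were positive, with a median of -0.01, and with the leukocyte covariate 9 were positive, with a median of -0.22.

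For import into mitochondria and the pyruvate dehydrogenase complex, 9 of 10 genes were tested, with a median change of 0.13, which was 0.01 without wild-type replicate 3, -0.02 with array weights and -0.22 with the leukocyte covariate. Pdhx, which anchors a subunit of the complex, was at 0.18 (SE 0.13), Pdp2, a phosphatase that switches the complex back on, at 0.21 (SE 0.21), and Mpc1, part of the mitochondrial pyruvate carrier, at 0.18 (SE 0.18). The complex's catalytic subunit gene Pdha1 had a signal of 4915, 5578 and 6987 in Vhl-deleted replicates 1 to 3, against 5303, 6060 and 4223 in wild-type replicates 1 to 3. It was chosen after its values were seen, and the groups overlapped.

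Of the other enzymes of pyruvate and lactate, 10 of 11 were tested, with a median change of 0.32, which was 0.06 without wild-type replicate 3 and -0.64 with the leukocyte covariate. The malic enzyme genes Me2 and Me1, whose products make pyruvate from malate, were at 0.30 (SE 0.16) and 0.69 (SE 0.48), and the alanine aminotransferase gene Gpt, whose product links pyruvate to alanine, at 0.28 (SE 0.18). The highest change in this group was 0.73, of Ldhd, the mitochondrial dehydrogenase of D-lactate, with an SE of 0.57; it too was chosen after its value was seen.

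Of the other monocarboxylate carriers and the relatives and ligands of basigin, 6 of 8 were tested, with a median change of 0.20. That median was -0.11 without wild-type replicate 3, -0.09 with the proximal tubule covariate, -0.12 with array weights and -0.63 with the leukocyte covariate. Ppib, the gene of cyclophilin B, an extracellular ligand of basigin, was at 0.15 (SE 0.09). Emb, the gene of embigin, which escorts MCT2 and is a relative of basigin, was at 0.36 (SE 0.26), and the sodium-coupled lactate carrier gene Slc5a12 of the proximal tubule at 0.52 (SE 0.72). Nptn, another relative of basigin chosen after its values were seen, had 9191, 8856 and 9378 in Vhl-deleted replicates 1 to 3, against 8358, 9408 and 9003 in wild-type replicates 1 to 3, a change of 0.04 (95% interval -0.18 to 0.25). Its interval lay wholly below the interval of the Bsg change, a comparison of values without a test of the difference.

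The 4 splicing factor genes known to act on the choice between the M1 and M2 exons of Pkm had a median change of -0.03. Ptbp1 was at 0.11 (SE 0.11), Hnrnpa1 at -0.12 (SE 0.13) and Srsf3 at -0.06 (SE 0.11), each with overlapping groups.

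**Figure D4:**
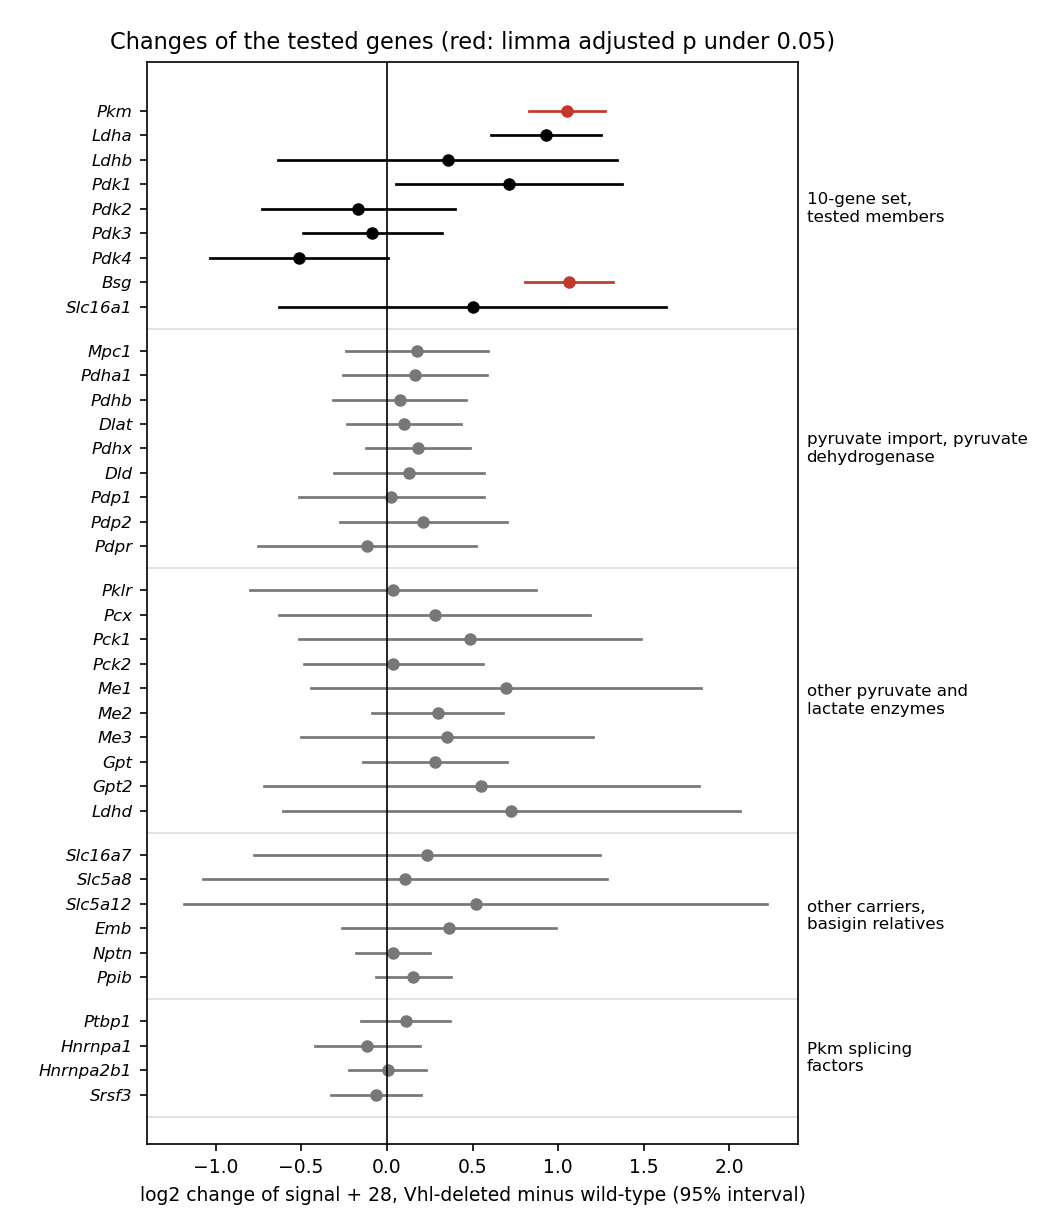
Log2 change of signal + 28, Vhl-deleted minus wild-type, with its 95% interval from limma, for the 9 tested members (black, or red where the adjusted p is under 0.05) and the 29 tested genes of the 4 pathway groups (grey). Pkm and Bsg, at 1.05 and 1.06, are the genes in red, and the intervals of all 29 pathway genes include 0.

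The genes whose array pattern was most like that of Pkm, Ldha and Bsg were found by the root mean square difference of log2 levels centred on each gene's mean over the 6 arrays. For Pkm the nearest was Mki67, the proliferation marker, at 0.034, followed by Derl3, a gene of endoplasmic reticulum protein degradation, at 0.107 and the phosphofructokinase gene Pfkl at 0.118. Mki67 had a signal of 455, 453 and 446 in Vhl-deleted replicates 1 to 3, against 212, 216 and 198 in wild-type replicates 1 to 3. Derl3 was dim, at 148, 136 and 163 in Vhl-deleted and 60.4, 74.8 and 53.4 in wild-type replicates 1 to 3. Its wild-type signals lay under the 96.4 of the filter, which Derl3 passed by its mean over all arrays. For Ldha the nearest were Derl3 at 0.098, Mki67 at 0.124 and Ly86, the gene of a partner of a leukocyte surface receptor, at 0.129. For Bsg they were Mki67 at 0.090, and Pfkl and the apelin gene Apln at 0.138 each. Pfkl (change 1.24, limma adjusted p = 0.00595) passed the test, while Mki67 (1.02, 0.0518), Apln (0.92, 0.218), Derl3 (0.97, 0.343) and Ly86 (0.75, 0.634) did not. Since these genes were picked by their pattern on the same 6 arrays, a group difference of like size was largely fixed by the choice. Their changes are no separate evidence, and a link between them and the members was not tested.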

How the data were processed

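RNA of bead-isolated glomeruli from 3 Vhl-deleted and 3 wild-type mice was measured on 6 arrays, grouped by the labels' titles. The authors deposited linear intensities, which the submitters' processing notes name as MAS5 signal, with no version given in the sources used here; the values show that the authors scaled each array to a 2% trimmed mean of 500. Detection calls were not used here. Arrays differed in median signal from 94.6 to 107.5, and no 2 arrays were identical. Precision is limited by having 6 arrays.

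Of 45101 probe sets, 64 were controls, 34945 had 1 symbol in the array's annotation (34741 updated by Entrez number through RefSeq), 932 several and 9160 none; the last 2 kinds were left out. Values were taken as log2(signal + 28), the 25th percentile of all values. Probe sets in the upper 50% by mean log2 level were kept, and the brightest stood for a gene (11159 genes). limma 3.58.1 (R 4.3.3) fitted the group difference, with eBayes and an intensity trend, and Benjamini-Hochberg adjustment over all genes, and again over 19890 probe sets; every adjusted p of a gene or probe set is from limma. The fit was tried on simulated data with independent noise per gene. That trial had no difference in tissue content between arrays, so it cannot speak to the low tubule signal of wild-type replicate 3. Differences within arrays were tested by exact two-sided permutation of the 6 arrays.

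The members and lists were chosen with earlier results of these data known. Named genes are the members, from each list those that passed or else the 3 of lowest unadjusted p, and the 3 nearest genes in pattern to Pkm, Ldha and Bsg, passing over genes without a proper name; exceptions are marked. The labels call the mice biological replicates. Same-numbered arrays did not deviate together (correlations -0.02, -0.41 and -0.51), so numbers were not treated as pairs, although this cannot exclude pairing. Alternatives changed scaling, pseudocount (7 and 100), filter, probe set choice, variance model, weights, covariates, threshold (0.1) and the arrays used.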

Additional observations from a re-analysis of the deposited data

How the results depend on the processing

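The Pkm and Bsg changes were positive in all 22 alternatives, between 0.99 and 1.09 and between 0.98 and 1.11. They passed in 15 and 14 of them. Ldha was positive in all 22 (0.65 to 1.00) and passed in 3. Not every alternative could move these values. For these genes, each with 1 probe set, the changes were unaltered by the filter, probe set choice, trend, robust variance, block and threshold settings. A threshold of 0.1 could also lose no call. Against 9 genes called in all, 33 were called with array weights or the proximal tubule covariate, 18 at a threshold of 0.1, 1 with the replicate number as a block, and, in settings added after seeing the data, 30 with a distal nephron covariate, 15 with the filter on the mean signal and 5 with the leukocyte covariate; leaving out each array gave 1 to 12. In place of 2 member genes, 1 was called without the intensity trend (Bsg adjusted p = 0.0698), 0 with the replicate block (Pkm and Bsg adjusted p = 0.358 each) and 0 with the leukocyte covariate, and 0 to 2 with each array left out. In place of 2 member probe sets, 1 was called with no filter, 0 without the trend, 0 with the replicate block, 0 with the leukocyte covariate, and 0 to 2 with each array left out. With array weights, the proximal tubule covariate or the distal nephron covariate, 3 member genes and 3 member probe sets were called. The pathway count stayed at 0 in all 22. The causes of these differences between settings were not tested. The replicate block took the count of all genes called to 1, and the labels do not say whether the numbers pair the mice. None of the 3 Vhl-deleted arrays deviated most like the wild-type array of its own number, which cannot exclude pairing.

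Signs turned only for members that did not pass. Ldhb was at -0.17 with array weights, -0.11 with the proximal tubule covariate and -0.84 with the leukocyte covariate, and between -0.12 (without wild-type replicate 3) and 0.63 with each array left out. Pdk3 was at 0.092, 0.061 and 0.24 in those 3 settings, 0.016 with the distal nephron covariate, and between -0.19 and 0.083 (without wild-type replicate 3) with each array left out. Slc16a1 was at -0.54 with the leukocyte covariate, and between -0.01 (without wild-type replicate 3) and 1.04 with each array left out. Slc16a3 was at 0.68 with the larger pseudocount. The 6 within-array differences stayed above 0 in all 10 alternatives, but without wild-type replicate 1 Slc16a3 minus Slc16a1 was 0.01 and Bsg minus Slc16a1 0.07, and without wild-type replicate 3 Pdk1 minus Pdk3 was 0.29. With the leukocyte covariate the Pdk1 change was 0.01. Quantile normalization and median scaling kept both calls. Dim genes such as Slc16a3 are limited by their signal.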
